A study of Saccharomyces cerevisiae with 4 samples.

Results

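The genes described here are the 34 genes of Saccharomyces cerevisiae that carry sulfur from sulfate into homocysteine, turn homocysteine over through methionine and S-adenosylmethionine (SAM), exchange it with cysteine, import these compounds, or regulate the pathway. They were taken as a list by name, with earlier results of these data known, and all 34 had a probe set among the 5449 genes tested. They were measured in 2 cultures of the dis3E729K mutant and 2 of wild type, all labelled as the BY4741 background, with a URA3 marker next to DIS3 in both genotypes. Dis3 is a catalytic subunit of the RNA exosome, which degrades RNA, and dis3E729K is a missense allele of DIS3. Cells grew at 30 °C in synthetic drop-out medium that selected for the DIS3 allele and were collected in mid-log phase. The methionine content of the medium, the number of independent clones behind each genotype and the density of each culture at collection are not given in the sources used here. Each culture gave 1 one-colour Affymetrix array, and the values are log2 intensities made with RMA, a method that corrects background, gives all arrays the same distribution and summarises the probes of a set. The titles call the cultures biological replicates. The 4 arrays limit the precision of every value, and p-values measure only the spread between these cultures.

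In yeast, imported sulfate is activated, reduced to sulfide and joined to O-acetylhomoserine to make homocysteine. Homocysteine is methylated to methionine, methionine becomes SAM, the cell's main methyl donor, and each methyl transfer returns homocysteine, which can also be exchanged with cysteine through cystathionine. The activator Met4, brought to promoters by Cbf1, Met28, Met31 and Met32 and held in check by the ubiquitin ligase subunit Met30, switches many of these genes on when sulfur amino acids run low.

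The arrays did not all match the label of their strain at MET17 (YLR303W). MET17, also called MET15, encodes the O-acetylhomoserine sulfhydrylase that makes homocysteine, and BY4741 is deleted for it. MET17 read 3.37 and 3.47 on the dis3E729K arrays, against 3.22 and 9.55 on the wild type arrays, replicates 1 and 2 in each case. Only the array labelled wild type replicate 2 lay above 4.06, the 95th percentile of the mean of the probe sets for another yeast species, which served as the background level. The mean over the wild type arrays therefore describes neither of them, and no fold is given for MET17. The log2 change fitted for it was -2.96 ± 2.19 (SE) with an adjusted p of 0.357, and 0.20 with an adjusted p of 0.630 without wild type replicate 2, where all 3 remaining arrays lay below background. LEU2, also deleted in BY4741, read 4.26 and 4.51 on the dis3E729K arrays and 4.56 and 4.58 on the wild type arrays, just above background on all 4. LYS2, which BY4741 keeps, read 11.54 and 11.26 in dis3E729K and 12.07 and 12.05 in wild type. URA3 read 11.22 and 10.89 in dis3E729K and 11.36 and 11.38 in wild type, so the marker's transcript was present on all 4. HIS3, of which BY4741 carries a deletion allele, read 10.93 and 10.49 in dis3E729K and 11.29 and 11.57 in wild type; whether its probe set lies outside the deleted part was not tested.

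The arrays were also split by mating type, along the replicate number. All 7 a-cell genes measured were higher on both replicate 1 arrays than on both replicate 2 arrays, by 2.16 to 7.21 log2 units, and all 5 alpha-cell genes were lower there, with differences of -8.96 to -3.68. BY4741 is an a-type strain. The dis3E729K replicate 2 culture was thus alpha-like with MET17 below background, and the wild type replicate 2 culture alpha-like with MET17 present. Each replicate number held 1 array of each genotype, so differences within a replicate number compare cultures of like mating type. Values without wild type replicate 2 are given below for each gene whose difference it moved by more than 0.1 log2 units.

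**Figure D1:**
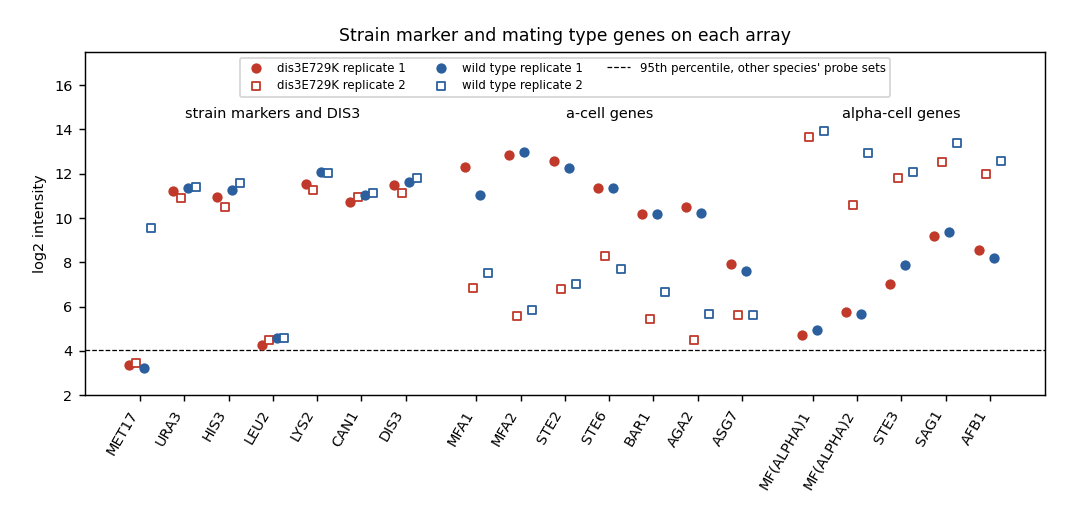
The log2 intensity (vertical axis) of 7 strain marker genes including DIS3, 7 a-cell genes and 5 alpha-cell genes is shown for each of the 4 arrays, with the background level as a dashed line. MET17 stands at 9.55 on wild type replicate 2 and at 3.22 to 3.47 on the other arrays, and the mating type genes separate replicate 1 (filled circles) from replicate 2 (open squares).

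The comparison of dis3E729K with wild type asks which of these transcripts differ when Dis3 carries the mutation. Among the 34 genes, SAM2 and MUP3 rose and 0 fell in limma's test at a Benjamini-Hochberg adjusted p under 0.05. Over all 5449 genes tested, 7.71% rose and 8.15% fell by the same rule, so 2 of 34 is close to the background share. With the replicate number, and so the mating type, as a block, SAM2, MUP3 and MMP1 rose and 0 members fell, where 3.65% of all genes rose and 2.64% fell. Before adjustment, 11 members were higher and 3 lower with p under 0.05, where 18.1% and 22.6% of all genes were. The median log2 change was 0.23 over the 34 genes and 0.25 without MET17, against -0.07 over all genes tested, and 23 of the 34 changes lay above 0, as did 44.7% of all genes. Both dis3E729K arrays lay above both wild type arrays for 17 members and below both for 6; the background was 32.3% and 41.8%. Against wild type replicate 1 alone, both mutant arrays were higher for 18 members and lower for 9, with a background of 39.1% and 47.3%. A log2 difference of 1 or more was measured for 8 members, and for 8.37% of all genes. In RNA from whole cultures, a change in the share of cells that express a gene and a change in RNA per cell cannot be told apart.

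By sub-group, the higher values lay in the methyl cycle and in transport. The median log2 change was 0.92 over the 8 methyl cycle genes and 0.84 over the 6 transport genes. It was 0.16 over the 4 transsulfuration genes, -0.01 over the 10 genes from sulfate to homocysteine and -0.08 over the 6 regulators. Without wild type replicate 2 the methyl cycle median was 0.62 and the transport median 0.79.

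**Figure D2:**
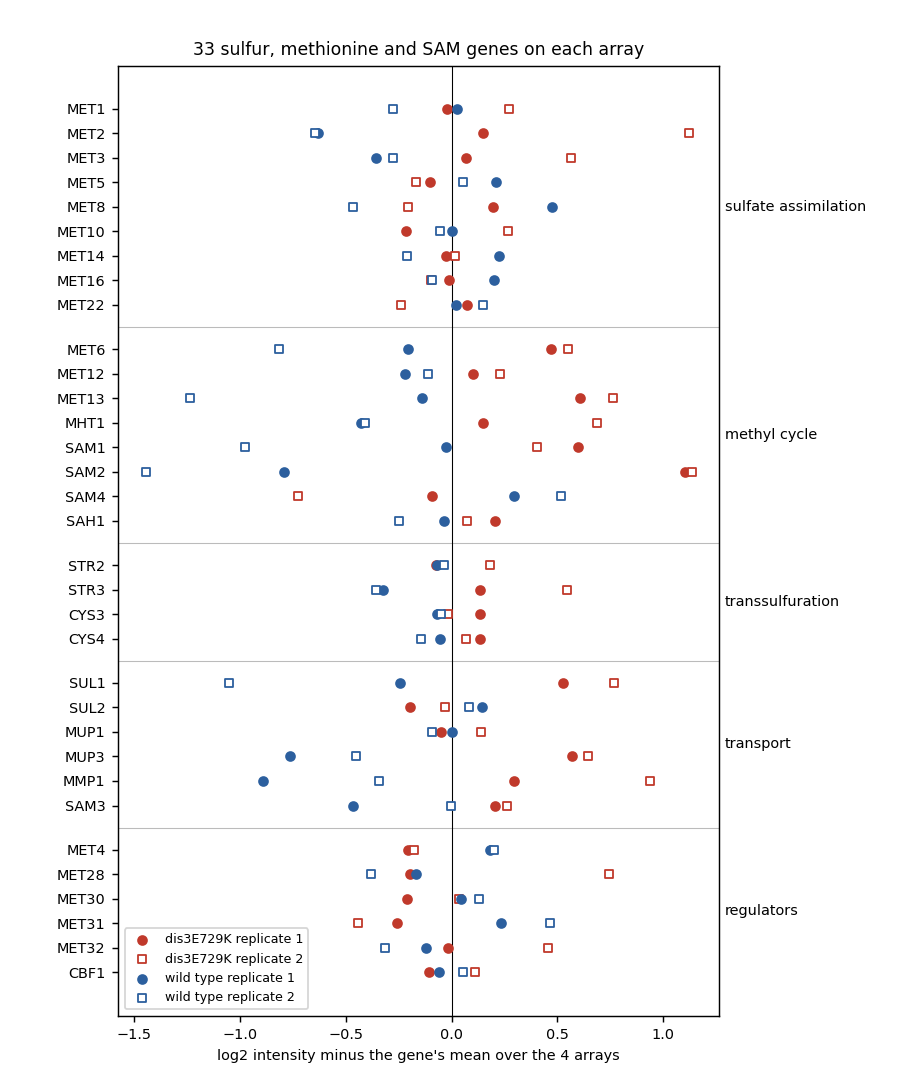
Each row is 1 of 33 genes (MET17 is left out because its range would flatten the others), and the horizontal axis gives the log2 intensity on each array minus the gene's mean over the 4 arrays. In the methyl cycle, both red dis3E729K symbols lie to the right of both blue wild type symbols for 7 of 8 genes, and for SAM4 they lie to the left. Over all genes tested, both mutant arrays lay above both wild type arrays for 32.3% and below both for 41.8%.

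The methyl cycle makes methionine and SAM and recovers homocysteine. SAM2 (YDR502C), 1 of a pair of S-adenosylmethionine synthetase genes, read 13.07 and 13.10 in dis3E729K, against 11.17 and 10.52 in wild type. The mutant arrays differed by 0.03 and the wild type arrays by 0.65, and the genotypes did not overlap. SAM2 rose by 2.24 ± 0.25 log2 units (SE), a 4.71-fold difference with an adjusted p of 0.0336, which placed it 94th of 5449 genes ranked from the largest rise. The SAM2 difference was 1.91 without wild type replicate 2, 2.25 without dis3E729K replicate 1 and 2.22 without dis3E729K replicate 2. The call was lost in each of these fits, in which fewer of all genes were called. Without wild type replicate 1 the difference was 2.56 and the call held.

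SAM1 (YLR180W), the paralogue of SAM2 with the same enzymatic role, read 12.98 and 12.78 in dis3E729K, against 12.35 and 11.41 in wild type. The genotypes did not overlap, but the wild type arrays lay 0.95 apart. The log2 difference was 1.00 ± 0.35 with an adjusted p of 0.115. It was 0.53 without wild type replicate 2 and 1.48 without wild type replicate 1, which leaves the array with MET17 signal as the only wild type array. MET6 (YER091C), the methionine synthase that methylates homocysteine with a folate-bound methyl group, read 13.36 and 13.44 in dis3E729K, against 12.68 and 12.07 in wild type. The difference of 1.02 ± 0.24 did not pass, with an adjusted p of 0.0582, and was 0.71 without wild type replicate 2. MET6 passed with an intensity trend in the variance model, at an adjusted p of 0.0488.

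MET13 (YGL125W), the methylenetetrahydrofolate reductase that supplies Met6 with methyl groups, read 10.73 and 10.89 in dis3E729K, against 9.98 and 8.89 in wild type. It was low on wild type replicate 2, which lay 1.10 below wild type replicate 1. The log2 difference was 1.37 ± 0.40 with an adjusted p of 0.0811. It was 0.82 without wild type replicate 2 and 1.92 without wild type replicate 1, which leaves wild type replicate 2 alone. MET12 (YPL023C), a second gene for this reductase, read 11.13 and 11.26 in dis3E729K and 10.81 and 10.92 in wild type, a smaller difference of 0.33 ± 0.13 with an adjusted p of 0.135. SAH1 (YER043C), which hydrolyses S-adenosylhomocysteine after a methyl transfer, read 14.00 and 13.87 in dis3E729K and 13.76 and 13.55 in wild type. The SAH1 difference was 0.28 ± 0.14 (adjusted p = 0.213) and 0.17 without wild type replicate 2, at intensities where array signal may be compressed, which was not tested.

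The homocysteine methyltransferase genes lay in opposite directions. MHT1 (YLL062C), whose product uses S-methylmethionine, read 8.28 and 8.82 in dis3E729K, against 7.70 and 7.72 in wild type, a difference of 0.84 ± 0.22 (adjusted p = 0.0683). SAM4 (YPL273W), whose product uses SAM, read 11.20 and 10.57 in dis3E729K, against 11.59 and 11.81 in wild type, a difference of -0.81 ± 0.26 (adjusted p = 0.0947), which was -0.70 without wild type replicate 2. Neither passed with all 4 arrays, and in both the genotypes did not overlap and the dis3E729K replicate 2 array was the further from wild type. The MHT1 difference was 1.11 without dis3E729K replicate 1 and 0.57 without dis3E729K replicate 2. It was 0.83 without wild type replicate 1 and 0.85 without wild type replicate 2. SAM4 was the 1 methyl cycle gene that was lower in the mutant.

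Transport held the other gene past the threshold. MUP3 (YHL036W), a low-affinity methionine permease, read 9.29 and 9.36 in dis3E729K, against 7.95 and 8.27 in wild type. The gap between genotypes was wider than the gap within either, and here wild type replicate 2 was the higher of the wild type arrays. MUP3 rose by 1.21 ± 0.16, a 2.32-fold difference with an adjusted p of 0.0346. Its difference was 1.37 without wild type replicate 2 and 1.06 without wild type replicate 1. The call was lost without any 1 of the 4 arrays, in fits where fewer of all genes were called. MUP1 (YGR055W), the high-affinity methionine permease, read 10.78 and 10.96 in dis3E729K and 10.83 and 10.73 in wild type, where the genotypes overlapped (0.09 ± 0.14, adjusted p = 0.651).

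SUL1 (YBR294W), a high-affinity sulfate permease, read 6.37 and 6.61 in dis3E729K, against 5.61 and 4.79 in wild type. These are low values: its mean over the 4 arrays lay at percentile 3.4 of all genes. On wild type replicate 2, LEU2, deleted in BY4741, read 4.58. The genotypes did not overlap, with a difference of 1.29 ± 0.31 and an adjusted p of 0.0606. It was 0.89 without wild type replicate 2 and 1.70 without wild type replicate 1, which leaves wild type replicate 2 alone. SUL2 (YLR092W), the other sulfate permease, read 7.29 and 7.45 in dis3E729K and 7.63 and 7.57 in wild type, a difference of -0.23 ± 0.13 (adjusted p = 0.254).

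MMP1 (YLL061W), the S-methylmethionine permease, read 8.95 and 9.59 in dis3E729K, against 7.76 and 8.31 in wild type. On both genotypes replicate 2 was the higher array, and the genotype differences were 1.18 in replicate 1 and 1.28 in replicate 2. The fit gave 1.23 ± 0.31 with an adjusted p of 0.0656, and 1.505 without wild type replicate 2. SAM3 (YPL274W), the SAM permease, read 10.99 and 11.04 in dis3E729K and 10.32 and 10.78 in wild type, a difference of 0.47 ± 0.20 (adjusted p = 0.159). The SAM3 difference was 0.70 without wild type replicate 2 and 0.23 without wild type replicate 1.

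**Figure D3:**
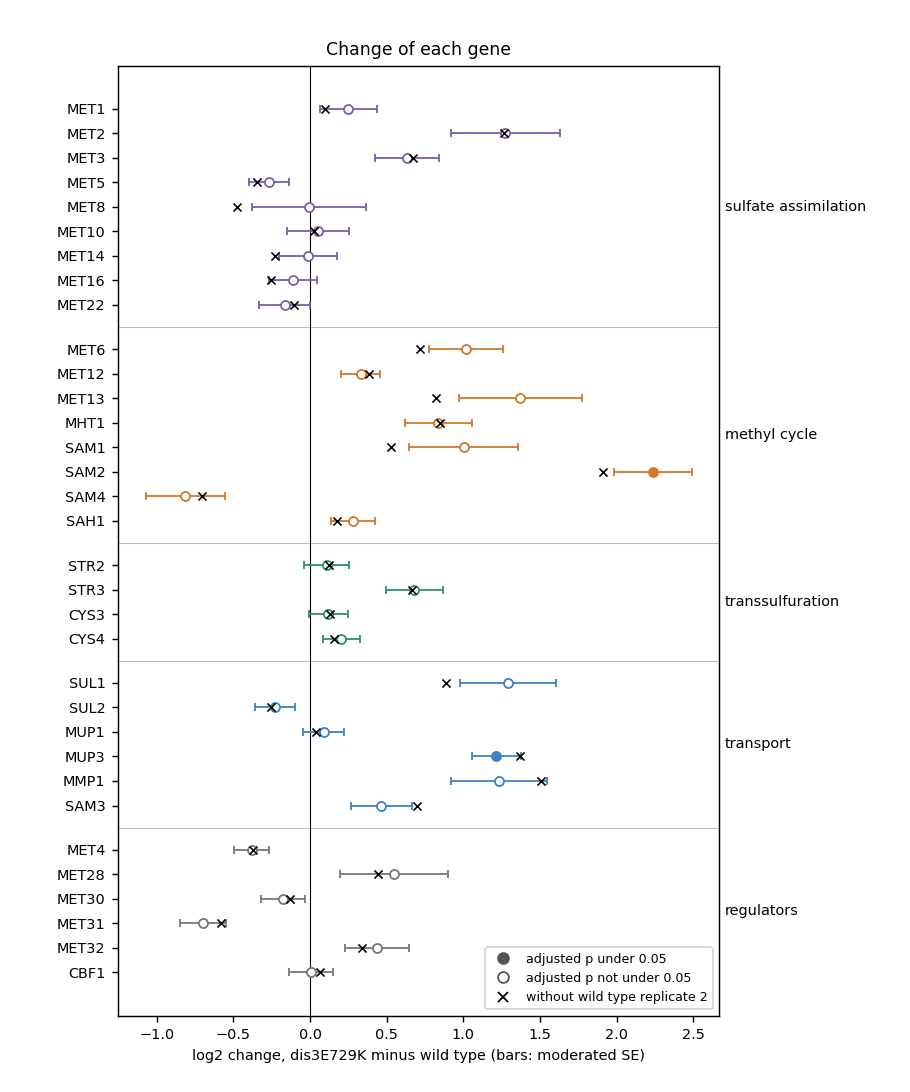
The horizontal axis gives the log2 change, dis3E729K minus wild type, of each of 33 genes with its moderated standard error as a bar; filled circles passed the adjusted p threshold. Crosses give the change without wild type replicate 2: they lie closer to zero for MET6, MET13, SAM1, SAM2 and SUL1 (0.71, 0.82, 0.53, 1.91 and 0.89) and further from it for MUP3 (1.37).

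Of the 10 genes that lead from sulfate to homocysteine, limma's test called 0, where 7.71% of all genes rose and 8.15% fell. Before adjustment 2 were higher and 0 lower with p under 0.05, where 18.1% and 22.6% of all genes were. The 2 are close to the share of all genes that were higher. MET2 (YNL277W), which makes the O-acetylhomoserine that accepts sulfide, read 7.44 and 8.42 in dis3E729K, against 6.66 and 6.65 in wild type. Both mutant arrays were higher, and dis3E729K replicate 2 lay 0.97 above replicate 1. These are low values, with a mean over the 4 arrays at percentile 7 of all genes. The difference was 1.27 ± 0.36 with an adjusted p of 0.0756. It was 1.76 without dis3E729K replicate 1 and 0.79 without dis3E729K replicate 2. MET3 (YJR010W), ATP sulfurylase, the first enzyme of sulfate activation, read 9.26 and 9.75 in dis3E729K, against 8.83 and 8.92 in wild type (0.63 ± 0.21, adjusted p = 0.101).

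The steps after MET3 did not show the same pattern of values. MET14 (YKL001C), the kinase that completes sulfate activation, differed by -0.01 ± 0.19, and MET16 (YPR167C), which reduces the activated sulfate to sulfite, by -0.11 ± 0.16. MET5 (YJR137C) and MET10 (YFR030W) encode the subunits of sulfite reductase; MET5 differed by -0.27 ± 0.13, with both mutant arrays below both wild type arrays, and MET10 by 0.05 ± 0.20, with overlap. MET1 (YKR069W) and MET8 (YBR213W) make siroheme, the cofactor of sulfite reductase, and differed by 0.25 ± 0.19 and -0.01 ± 0.37. MET8 read 9.58 and 9.18 in dis3E729K and 9.86 and 8.92 in wild type, so its arrays followed the replicate number and not the genotype. Without wild type replicate 2 the differences were -0.48 for MET8, -0.26 for MET16, -0.23 for MET14 and 0.10 for MET1. MET22 (YOL064C), a phosphatase that removes a by-product of sulfate reduction, differed by -0.17 ± 0.16. Adjusted p values of these 7 genes lay between 0.195 and 0.988. For MET8 and MET14 the sign of the difference turned under another normalization.

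In transsulfuration, 0 of 4 genes passed limma's test, where 7.71% of all genes rose and 8.15% fell. Before adjustment 1 was higher and 0 lower with p under 0.05, against 18.1% and 22.6% of all genes. That gene was STR3 (YGL184C), a cystathionine beta-lyase on the way from cysteine to homocysteine. STR3 read 7.39 and 7.80 in dis3E729K, against 6.93 and 6.90 in wild type, a difference of 0.68 ± 0.18 with an adjusted p of 0.0714. The mean of STR3 over the 4 arrays was low, at percentile 6.8 of all genes. STR2 (YJR130C), the cystathionine gamma-synthase that precedes it, differed by 0.11 ± 0.15. On the way from homocysteine to cysteine, CYS4 (YGR155W), cystathionine beta-synthase, differed by 0.20 ± 0.12, and CYS3 (YAL012W), cystathionine gamma-lyase, by 0.12 ± 0.13. All 4 differences were above 0, and adjusted p values of the last 3 lay between 0.270 and 0.603.

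Of the 6 regulators, limma's test called 0, where 7.71% of all genes rose and 8.15% fell. Before adjustment 0 were higher and 2 lower with p under 0.05, against 18.1% and 22.6% of all genes. MET31 (YPL038W), a zinc finger protein that brings Met4 to DNA, read 9.63 and 9.45 in dis3E729K, against 10.12 and 10.35 in wild type. The genotypes did not overlap, and the difference of -0.70 ± 0.15 had an adjusted p of 0.0523; it was -0.58 without wild type replicate 2. MET32 (YDR253C), its paralogue, read 6.34 and 6.81 in dis3E729K and 6.24 and 6.04 in wild type (0.44 ± 0.21, adjusted p = 0.193). The mean of MET32 over the 4 arrays was low, at percentile 4.4 of all genes. MET4 (YNL103W), the activator itself, read 10.31 and 10.34 in dis3E729K, against 10.70 and 10.72 in wild type. The arrays of each genotype lay within 0.03 of each other at MET4, and the difference of -0.38 ± 0.12 had an adjusted p of 0.0863. MET28 (YIR017C), a bZIP cofactor of Met4, read 7.51 and 8.45 in dis3E729K and 7.54 and 7.33 in wild type, so that dis3E729K replicate 2 alone stood apart (0.55 ± 0.35, adjusted p = 0.299, and 0.44 without wild type replicate 2). MET30 (YIL046W), the F-box protein that restrains Met4, differed by -0.18 ± 0.15 (adjusted p = 0.403), and CBF1 (YJR060W), which binds centromeres and MET promoters, by 0.01 ± 0.14 (adjusted p = 0.974).

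Wild type replicate 2, the array with MET17 signal, lay below wild type replicate 1 for 19 of the 34 genes, where 40.8% of all genes did. The difference, replicate 2 minus replicate 1, was -1.10 for MET13, -0.95 for SAM1, -0.94 for MET8, -0.81 for SUL1, -0.65 for SAM2 and -0.61 for MET6. Apart from MET17 at 6.32, the largest positive differences were 0.55 for MMP1, 0.46 for SAM3 and 0.32 for MUP3. Smaller positive ones included 0.23 for MET31 and 0.22 for SAM4, a methyl cycle gene. The median absolute gap between the wild type arrays was 0.19 over the 33 genes without MET17 and 0.14 over all genes tested. Over the methyl cycle it was 0.41. Between the mutant arrays, the median absolute gap was 0.19 over the 33 genes and 0.21 over all genes. The part of MET17 or of mating type in these differences was not tested.

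Within replicate numbers, the median difference over the 34 genes was 0.13 for the replicate 1 arrays and 0.29 for the replicate 2 arrays, against -0.04 and -0.11 over all genes tested. The sign was the same in both for 24 of 34 members and for 4351 of the 5449 genes. The methyl cycle median was 0.60 for replicate 1 and 1.23 for replicate 2. The genes from sulfate to homocysteine had medians of -0.13 and 0.24. SAM2 differed by 1.89 in replicate 1, where neither array had MET17 signal, and by 2.58 in replicate 2. MUP3 differed by 1.34 and 1.09.

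**Figure D4:**
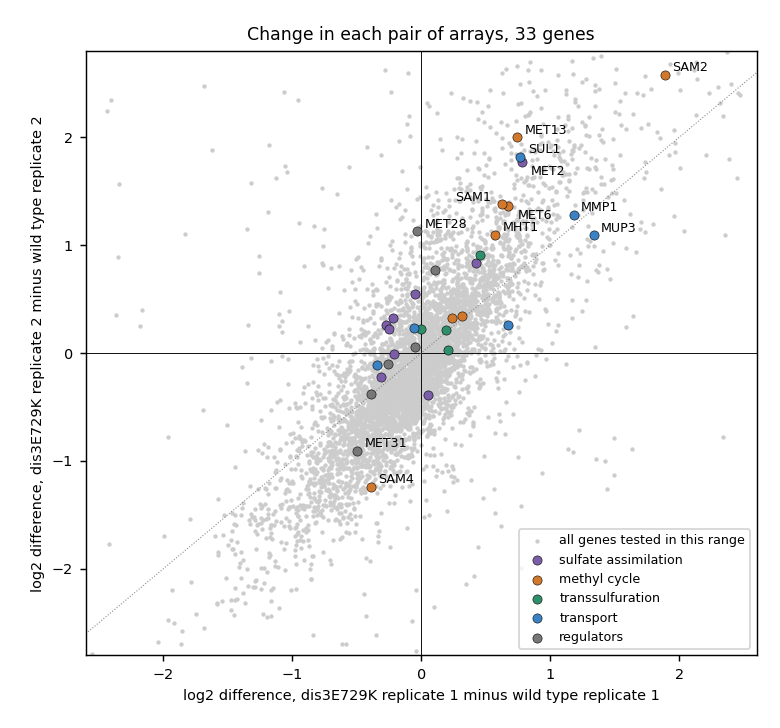
Each coloured point is 1 of 33 genes, with the log2 difference, dis3E729K minus wild type, of replicate 1 on the horizontal axis and of replicate 2 on the vertical axis; grey points are all genes tested in the plotted range and the dotted line marks equality. SAM2 stands at 1.89 and 2.58, MET13, SUL1 and MET2 lie above the line, and MUP3 lies below it at 1.34 and 1.09.

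Several steps of the pathway have a pair of genes with the same or a related role, and 6 such pairs were compared. The measure was the difference between the partners on each array, and an exact two-sided permutation test over 2 against 2 arrays cannot give a p below 0.333. All 6 pairs reached that value, 0.333 after Benjamini-Hochberg adjustment over the 6, so the pairs are described by their values. The partner with the larger log2 change is named first, which fixes the direction of each difference. SAM2 stood higher relative to SAM1 in dis3E729K than in wild type by 1.23 log2 units, with 1.38 without wild type replicate 2. MHT1 against SAM4 gave 1.65, SUL1 against SUL2 1.52, MET32 against MET31 1.14 and MUP3 against MUP1 1.13. MET13 against MET12 gave 1.04, which was 0.44 without wild type replicate 2.

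**Figure D5:**
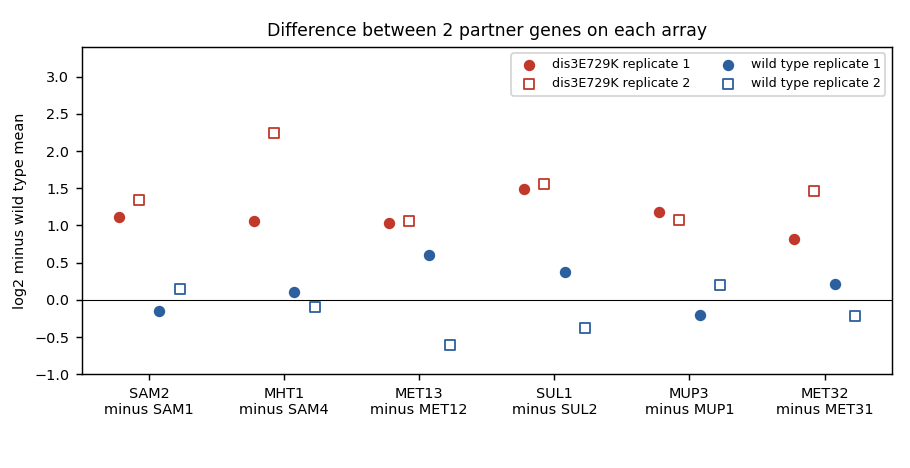
For 6 pairs of partner genes, the vertical axis gives the log2 difference between the partners on each array minus the wild type mean of that difference. The partner with the larger change comes first, so the mean of the red dis3E729K symbols lies above zero by construction, at 1.23, 1.65, 1.04, 1.52, 1.13 and 1.14 from left to right.

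Around the pathway, 42 further genes were measured that supply or use its compounds. Of these, 2 rose and 0 fell in limma's test, before adjustment 6 were higher and 1 lower with p under 0.05, and their median log2 change was 0.07. These counts are no larger a share than over all genes, of which 7.71% rose and 8.15% fell, and 18.1% and 22.6% before adjustment. Both that rose encode methyltransferases that turn phosphatidylethanolamine into phosphatidylcholine with SAM as the methyl donor. OPI3 (YJR073C) read 13.42 and 13.72 in dis3E729K, against 12.06 and 11.94 in wild type, and rose by 1.57 ± 0.16 (adjusted p = 0.0335). CHO2 (YGR157W) read 13.10 and 13.23 in dis3E729K, against 12.54 and 12.46 in wild type, and rose by 0.66 ± 0.13 (adjusted p = 0.0445). Without wild type replicate 2 the values were 1.51 for OPI3 and 0.62 for CHO2. Neither passed in that fit, where fewer of all genes were called. Both calls were also lost without dis3E729K replicate 2, and that of CHO2 without any 1 of the 4 arrays and with the replicate block (adjusted p = 0.104).

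The other genes around the pathway did not pass. ADI1, of the methionine salvage pathway, read 10.12 and 10.59 in dis3E729K, against 9.54 and 9.33 in wild type, a difference of 0.92 ± 0.21 (adjusted p = 0.0557), which was 0.82 without wild type replicate 2. GSH1, which makes the first intermediate of glutathione from cysteine, read 10.41 and 10.78 in dis3E729K, against 10.05 and 9.64 in wild type, a difference of 0.75 ± 0.22 (adjusted p = 0.0845), which was 0.55 without wild type replicate 2. The median was -0.22 over 9 genes of methionine salvage and polyamine synthesis and 0.01 over 7 genes of one-carbon folate metabolism. It was 0.29 over 7 glutathione genes, -0.03 over 3 genes of homoserine supply and 0.26 over 9 other genes of sulfur uptake, efflux and use. The 4 genes of the ubiquitin ligase that contains Met30 had a median of 0.11.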

How the data were processed

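The authors deposited a log2 intensity for every probe set on every array, made with RMA. The tools named by the submitters' processing notes are Affymetrix Expression Console and Transcriptome Analysis Console. Their versions and the genome build are not given in the sources used here, and coordinates are not printed. RMA with quantile normalization hides a global shift of mRNA. Of 10928 probe sets, 5498 were tied through Entrez identifiers to 1 S. cerevisiae gene. For each gene the probe set with the highest mean over the 4 arrays was kept, leaving 5449 genes; each of the 34 members had 1 probe set, none of them marked for cross-hybridisation.

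Mutant and wild type, grouped by title, were compared without a block in limma 3.58.1 under R 4.3.3, by lmFit and eBayes, with 2 residual and 2.18 prior degrees of freedom, Benjamini-Hochberg adjustment over all 5449 genes and a threshold of 0.05. Changes are dis3E729K minus wild type, with moderated SE. The procedure was tested on simulated data. The members, the neighbouring genes, the marker genes and the alternatives were chosen with earlier results of these data known. The partner gene comparison and the counts against wild type replicate 1 alone were added after seeing the data. All members are named. Array values are given for MET17, for members past the threshold, and for those with a non-overlapping difference of at least 1 log2 unit. They are also given where a gap within a genotype was at least 1 log2 unit. Further members were chosen after values were seen. Some of these came close to the threshold, and others, such as MUP1, SUL2, SAH1 and MET12, did not. Of the neighbouring genes, those past the threshold and the 4 with the largest moderated statistic are named. The values of the other alternatives stand in the closing section. YLL058W had no probe set tied to it.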

Additional observations from a re-analysis of the deposited data

How the results depend on the processing

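Of all genes, 420 rose and 444 fell; with the replicate block 199 and 144 did, without variance moderation 0 and 2 (631 and 777 with p under 0.05 before adjustment), at a threshold of 0.01, 0 and 0, and at 0.10, 883 and 1069. Leaving out 1 array gave 0 to 316 higher and 0 to 351 lower: 9 and 2 without wild type replicate 2, 164 and 85 without wild type replicate 1, and 0 and 0 without dis3E729K replicate 2 (694 and 868 with p under 0.05 before adjustment). Of the 34 members, 2 rose and 0 fell; without variance moderation 0 rose (2 higher and 2 lower with p under 0.05 before adjustment), at 0.01, 0, and at 0.10, 9 were higher and 3 lower. Leaving out 1 array leaves 1 genotype with 1 array and no spread of its own, so the member calls of those fits are not counted. Calls were gained as well as lost there. MET13, SUL1, SAM1 and MET17 passed without wild type replicate 1, and MET2 and MHT1 passed without dis3E729K replicate 1. Of the neighbouring genes 2 rose. The replicate block left 1, no moderation 0, the 0.01 threshold 0, and the 0.10 threshold 5, with 1 lower.

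The replicate numbers pair no samples per the labels, and deviations of same-numbered arrays correlated at 0.08 over all genes. With the replicate block, SAM2 (adjusted p = 0.0348) and MUP3 (0.0475) passed, MMP1 passed as well (0.0456), OPI3 passed (0.0396) and CHO2 did not (0.104).

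The median over the members was 0.13 for the replicate 1 arrays alone. For sulfate assimilation the median was -0.13 and 0.24 for the replicate 1 and the replicate 2 arrays alone, for the methyl cycle 0.60 and 1.23, for transsulfuration 0.20 and 0.22, and for transport 0.68 for replicate 2 alone. Leaving out 1 array moved these medians between 0.17 and 0.27 over the members, -0.071 and 0.14 for sulfate assimilation, 0.62 and 1.08 for the methyl cycle, 0.14 and 0.22 for transsulfuration, 0.60 and 0.87 for transport and -0.20 and 0.03 for the regulators.

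Leaving out 1 array or another normalization turned the sign for 8 members, and the replicate 1 arrays alone turned it for 3 further ones, MET1 at -0.049, MET28 at -0.029 and MET22 at 0.053; none of the 11 had passed with all 4 arrays. Leaving out 1 array gave -0.48 to 0.46 for MET8, -0.19 to 0.30 for MET10, -0.23 to 0.20 for MET14, -0.26 to 0.039 for MET16, -6.13 to 0.20 for MET17, -0.020 to 0.24 for STR2, -0.0048 to 0.18 for MUP1 and -0.10 to 0.12 for CBF1. Quantile normalization over the tested genes gave 0.0084 for MET8 and 0.029 for MET14, and median centring gave 0.0066 and 0.0013. The cause was not tested. Robust variance estimation, dim genes left out, the mean of the probe sets of a gene, all probe sets except controls, and cross-hybridising probe sets left out changed no call or sign among the members and the 4 neighbouring genes named by the rule.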
